A study of Mus musculus with 12 samples.

Results

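Interferon-stimulated genes are the genes that cells switch on when an interferon binds its receptor, and 40 of them were followed across the left ventricle (LV) of 12-week-old mouse offspring. The 40 genes were given as a list of symbols, chosen with earlier results of these data known. All 40 were found among the 46983 genes counted and passed the filter on low counts that left 14706 genes for testing. The ventricles came from FVB mice born to Wt females mated with Hif1a+/- males, where Hif1a+/- offspring carry 1 null allele of Hif1a, the oxygen-regulated subunit of the transcription factor HIF-1. Diabetic dams had been given streptozotocin, which destroys insulin-producing cells, before mating, and the offspring themselves were not injected. The 4 groups were Wt from non-diabetic pregnancy (animals 25, 42 and 89), Wt from diabetic pregnancy (50, 7 and 80), Hif1a+/- from non-diabetic pregnancy (14, 32 and 44) and Hif1a+/- from diabetic pregnancy (66, 72 and 77), with 3 libraries each. Offspring of a group came from several litters in the methods of the study, and the litter of each library is not in the labels.

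Interferons of type I act on genes through the interferon-stimulated response element (ISRE), which is bound by a complex that holds STAT2 and IRF9, and interferon-gamma acts mainly through the gamma-activated site (GAS). Both routes share many targets, yet the guanylate-binding proteins (GBPs), the immunity-related GTPases (IRGs) and the peptide-loading genes of the class I pathway are best known as targets of interferon-gamma, and the IFIT and OAS genes as targets of type I interferon. In the heart these genes are expressed at a low tonic level in resident cells and are induced by viral myocarditis and by immune infiltrates.

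The promoters of the members hold these elements, and 7 are shown because they belong to genes on which the results turn. RefSeq promoter windows, from 250 bases before to 50 after a start site, were given for 31 of the 40 members in 37 windows (build GRCm38.p6). The ISRE was searched as GAAA repeated after any 2 bases and the GAS as TTCNNNGAA, on both strands. An ISRE match lay in a window of 19 of the 31 members (61.3%) against 3.99% of all 27025 genes with a window, and a GAS match in 11 (35.5%) against 9.55%. Both matches were found in 7 members (22.6%), namely Bst2, Gbp5, Gbp7, Ifitm3, Igtp, Irgm2 and Oas1a, against 0.614% of all genes. The 150 bases before the start site are printed on the strand of the gene, with the matches in capitals.
Igtp, chr11:58199406-58199555 (+ strand): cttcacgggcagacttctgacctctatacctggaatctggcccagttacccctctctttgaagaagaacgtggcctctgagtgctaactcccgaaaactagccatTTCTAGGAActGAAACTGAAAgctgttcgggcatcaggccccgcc
Irgm2, chr11:58214827-58214976 (+ strand): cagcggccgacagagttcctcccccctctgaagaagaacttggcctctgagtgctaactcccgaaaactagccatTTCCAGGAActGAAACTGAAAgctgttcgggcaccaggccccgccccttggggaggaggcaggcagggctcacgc
Gbp2, chr3:142620513-142620662 (+ strand): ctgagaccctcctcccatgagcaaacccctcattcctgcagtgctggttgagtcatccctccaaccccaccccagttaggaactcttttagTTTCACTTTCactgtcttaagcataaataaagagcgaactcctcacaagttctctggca
Gbp7, chr3:142530186-142530335 (+ strand): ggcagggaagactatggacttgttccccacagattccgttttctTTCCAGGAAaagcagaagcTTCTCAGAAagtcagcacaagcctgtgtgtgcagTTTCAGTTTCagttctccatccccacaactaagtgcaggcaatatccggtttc
Isg15, chr4:156200819-156200968 (- strand): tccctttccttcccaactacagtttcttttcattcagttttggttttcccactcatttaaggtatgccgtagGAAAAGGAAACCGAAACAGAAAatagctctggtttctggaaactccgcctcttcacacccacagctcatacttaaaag
Ifitm2, chr7:140955962-140956111 (- strand): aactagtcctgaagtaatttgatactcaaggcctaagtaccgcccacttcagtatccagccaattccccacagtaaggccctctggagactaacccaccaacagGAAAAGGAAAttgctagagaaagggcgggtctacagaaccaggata
Ifitm1, chr7:140967926-140968075 (+ strand): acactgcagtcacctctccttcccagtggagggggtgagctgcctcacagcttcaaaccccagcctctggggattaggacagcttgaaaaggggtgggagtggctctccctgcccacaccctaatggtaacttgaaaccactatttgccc
In Igtp and Irgm2, neighbouring IRG genes on chromosome 11, the GAS match is followed after 11 bases, start to start, by the ISRE match GAAACTGAAA. The stretches of these neighbours are alike in 103 of 120 bases (85.8%) when set against each other at an offset of 30 bases. Gbp2 has 1 ISRE match 59 bases before the start, Gbp7 has 1 ISRE and 2 GAS matches, and Isg15 has 3 ISRE matches that overlap one another. Ifitm2 has 1 ISRE match 46 bases before the start. The window of Ifitm1 holds neither set of letters. A match is a description of the letters, and binding was not measured.

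The total count per library was between 16132442 and 39812939, and each member had between 207 (Zbp1) and 26560 (Ifitm3) counts over the 12 libraries. Genes that mark the heart muscle cells of the ventricle took 73835 to 85203 counts per 1000000 (CPM, scaled by the trimmed mean of M-values, TMM) in every library, whereas 9 markers of T and NK cells together took 1.46 to 4.14 CPM. The labels give the animals as female and the design as male, and Y-linked genes exceeded Xist in 11 of 12 libraries, the exception being diabetic Hif1a+/- 72. Counts of Hif1a at the 3′ end, 47.9 to 71.8 CPM in Wt and 64.8 to 89.4 CPM in Hif1a+/-, do not check the genotype because the null allele lacks an exon elsewhere in the gene. In these whole-tissue libraries, fewer cells of a type and less RNA per cell cannot be told apart.

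Of the 12 libraries, diabetic Wt 80 stood apart, so results that rest on it are given with and without it. In that library 29 of the 40 members (72.5%) had their highest value of all 12 libraries, against 12.8% of all genes tested, and 21 members (52.5%) lay more than 1.5-fold above the median of the other 11 libraries, against 4.66% of all genes. The next library by this count, diabetic Hif1a+/- 77, had the highest value for 4 members. At the other end stood diabetic Wt 7, of the same group as 80, with the lowest value for 13 members (32.5%) against 11% of all genes. The heat map of members by library shows the column of animal 80 as the darkest in its upper rows.

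**Figure D1:**
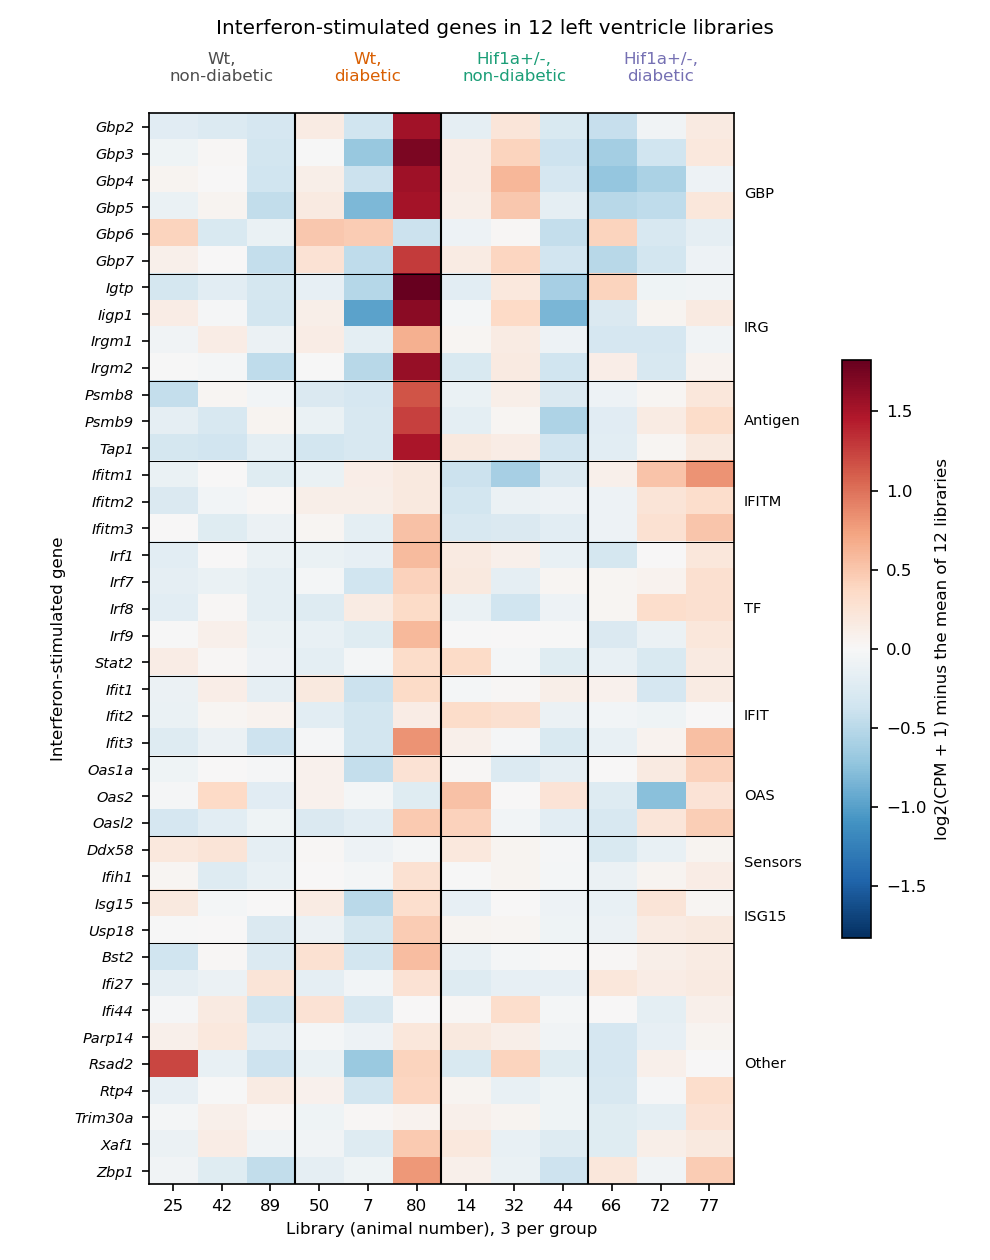
Each row is 1 of the 40 interferon-stimulated genes, grouped by role, and each column 1 of the 12 libraries, labelled by animal number; the colour is log2(CPM + 1) minus the mean of that gene over the 12 libraries. GBP, IRG and antigen-processing genes are highest in diabetic Wt 80, apart from Gbp6, and Rsad2 is highest in non-diabetic Wt 25.

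The GBPs are large GTPases that coat and break open the vacuoles of intracellular pathogens. Gbp2 measured 24.4, 23.7 and 22.8 CPM in non-diabetic Wt (25, 42, 89), 31.5, 21.8 and 83.9 CPM in diabetic Wt (50, 7, 80), 25.2, 33.3 and 23.2 CPM in non-diabetic Hif1a+/- (14, 32, 44) and 21.0, 27.2 and 31.8 CPM in diabetic Hif1a+/- (66, 72, 77). Outside animal 80 no library exceeded 33.3 CPM, and animal 7 of the same group lay below all 3 non-diabetic Wt animals. Gbp4 measured 20.3, 19.7 and 15 CPM in non-diabetic Wt, 21.2, 14.8 and 59.1 in diabetic Wt, 21.7, 30.4 and 15.7 CPM in non-diabetic Hif1a+/- and 11.6, 12.9 and 18.3 in diabetic Hif1a+/-. Again the diabetic Wt group held both the highest value and, in animal 7, one under all non-diabetic Wt animals, and diabetic Hif1a+/- 66 and 72 were the lowest of the 12. Gbp7 measured 19.1, 18 and 13.0 CPM in non-diabetic Wt, 21.7, 12.7 and 45.0 in diabetic Wt, 19.9, 23.9 and 13.8 CPM in non-diabetic Hif1a+/- and 12.3, 14.0 and 16.8 in diabetic Hif1a+/-. In animal 80, 5 of the 6 GBPs were the highest of 12, at 2.68 (Gbp7) to 3.7 times (Gbp3) the median of the other libraries. Gbp3 measured 39.9 CPM there against 6.74 to 15.5 CPM elsewhere, and Gbp5, which assembles inflammasome components, 35.0 CPM against 6.06 to 16.6 CPM, and for both animal 7 was the lowest library. Gbp6 did not share this pattern: it stood at 1.83 CPM in animal 80, 0.733 times the median of the others and 11th of 12. Gbp2, Gbp3, Gbp5 and Gbp7 lie side by side on chromosome 3, and Gbp4 and Gbp6 on chromosome 5. Gbp4 overlaps Gbp8 and Gbp9 on the same strand and Gbp6 overlaps another annotated gene, so the counting rule, which drops reads that fit more than 1 gene, leaves their levels uncertain, as does the likeness between GBP paralogs.

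The IRGs are smaller GTPases that act on the same vacuoles, and Irgm1 also has a part in autophagy. Igtp measured 12.1, 13.3 and 12.0 CPM in non-diabetic Wt, 13.7, 10.4 and 56.7 in diabetic Wt, 13.3, 17.6 and 9.7 CPM in non-diabetic Hif1a+/- and 20.6, 14.4 and 14.6 in diabetic Hif1a+/-. The value of animal 80 was 2.76-fold that of the next highest library, diabetic Hif1a+/- 66. All 4 IRGs were highest in animal 80, Igtp at 4.27, Iigp1 at 3.24, Irgm2 at 3.21 and Irgm1 at 1.66 times the median of the other libraries. Irgm2 measured 63.6 CPM there against 14.1 to 23 CPM, and Iigp1, the most abundant of the 4 in counts, 109 CPM against 16.7 to 44.2 CPM, with animal 7 again the lowest for both. Irgm1 measured 22.6, 26.0 and 21.9 CPM in non-diabetic Wt, 26.1, 20.8 and 37.6 in diabetic Wt, 24.3, 26.4 and 22.2 CPM in non-diabetic Hif1a+/- and 18.9, 19.0 and 22.7 in diabetic Hif1a+/-. Diabetic Hif1a+/- 66 and 72 were the lowest of the 12 libraries, and animal 77 lay within the range of every other group. The spans of Igtp and Irgm2, introns included, share 7974 bases on the same strand, so that some of their reads may be split or dropped.

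The members for antigen processing are Psmb8 and Psmb9, catalytic subunits of the immunoproteasome, and Tap1, a subunit of the transporter that carries peptides to class I molecules. Tap1 measured 9.34, 9.14 and 10.4 CPM in non-diabetic Wt, 9.27, 9.6 and 35.5 in diabetic Wt, 13.7, 13.2 and 9.2 CPM in non-diabetic Hif1a+/- and 10.3, 12.3 and 13.7 in diabetic Hif1a+/-. Without animal 80 the 11 values ran from 9.14 to 13.7 CPM. Psmb8 measured 26.1 CPM and Psmb9 27.1 CPM in animal 80, or 2.48 and 2.83 times the median of the other libraries, and both were highest there. Among 16 further genes of class I presentation, 13 were highest in animal 80, including Nlrc5, the transactivator of class I genes, at 11.4 CPM, and H2-D1, at 689 CPM. Reads of the near-identical class I genes can be split between copies.

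**Figure D2:**
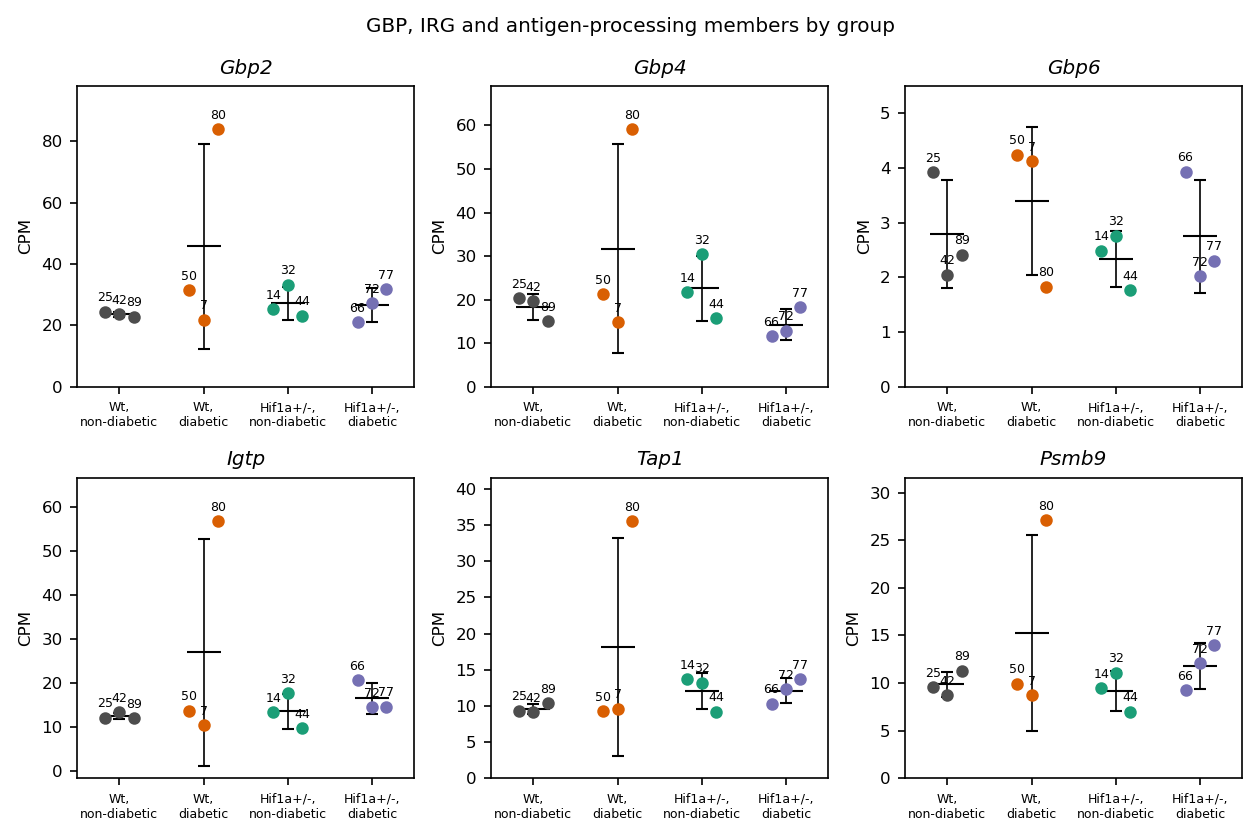
TMM-scaled CPM of 6 members in each library (dots, with the animal number) by group; horizontal bars are the mean and vertical bars the SD of 3 libraries. In 5 panels animal 80 lies far above the other 2 diabetic Wt animals, and in the Gbp6 panel it is the lowest of its group.

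The other role groups were closer to the rest in animal 80. The median ratio to the other libraries was 1.44 for the 5 transcription factors, 1.33 for the 3 IFIT genes, 1.28 for the OAS family, 1.1 for the RNA sensors Ifih1 and Ddx58, and 1.3 for the IFITM genes, against 3.28 for the GBPs, 3.23 for the IRGs and 2.83 for antigen processing. Irf1, a factor induced by interferon-gamma, measured 45.5 CPM in animal 80 and 24.0 to 35.2 CPM in the other 11. Ifit3, which binds viral RNA complexes, measured 6.57 CPM there against 2.29 to 5.26 CPM, and Zbp1, a sensor of Z-form nucleic acids, 1.94 CPM against 0.245 to 1.33 CPM. Isg15, the ubiquitin-like modifier, was also highest in animal 80, at 4.57 CPM, but close to the next library at 4.31 CPM. In contrast, Oas2 was 10th and Ddx58 8th of 12.

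The remaining members are given by their range over the 12 libraries. Among the transcription factors, Irf9, the DNA-binding partner of STAT2, ran from 15.6 to 29.1 CPM with its highest value in animal 80, and Stat2 from 14.5 to 22.9 CPM with its highest value in non-diabetic Hif1a+/- 14. Ifit1, which binds viral RNA by its cap, ran from 2.04 CPM in animal 7 to 4.06 CPM in animal 80, and Usp18, the protease that removes ISG15 from proteins, from 1.36 to 3.09 CPM in the same animals. The RNA sensor Ifih1 (MDA5) ran from 6.46 to 9.66 CPM, highest in animal 80, and Ddx58 (RIG-I) from 13.2 to 19.3 CPM, highest in non-diabetic Wt 42. The antiviral effectors differed in which library was highest. Parp14, an ADP-ribosyltransferase, ran from 25.9 to 37.1 CPM, Xaf1, a pro-apoptotic protein, from 7.49 to 12.9 CPM and Rtp4 from 4.6 to 8.23 CPM, all highest in animal 80, whereas Trim30a (8.48 to 12.2 CPM) was highest in diabetic Hif1a+/- 77 and Ifi44 (2.04 to 3.89 CPM) in non-diabetic Hif1a+/- 32.

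Genes around the members were read in the same libraries. None of 12 interferon genes passed the filter, 9 had no read in any library, and Ifng had 2 reads in all, 1 of them in animal 80. A count of 0 allows at most 0.0754 to 0.186 CPM per library, so low expression of an interferon could not be seen at this depth. The 6 interferon receptor genes stood in animal 80 at 0.877 to 1.14 times the median of the others. Cxcl9, a chemokine gene typical of interferon-gamma, measured 4.97 CPM in animal 80 and at most 1.28 CPM elsewhere, and Tgtp1, another IRG, 9.71 CPM against at most 3.04 CPM. Of 45 tested interferon-stimulated genes outside the list of members, 17 were highest in animal 80, where 12.8% of all genes were. Their median there was 1.23 times the other libraries (0.773 to 9.59). For JAK-STAT signalling genes the median was 0.952 (1 of 11 highest), and for nucleic acid sensing 0.986 (1 of 17 highest). The summed T and NK cell markers stood at 2.91 CPM in animal 80, within the 1.46 to 4.14 CPM of the other libraries. Of these 9 markers 3 passed the filter, and Trbc2, a T cell receptor gene, had its highest value in animal 80, at 0.743 CPM (13 counts), or 2.95 times the median of the others, while Cd3e and Cd4 lay under that median (0.885 and 0.867 times). The 10 macrophage markers stood at 623 CPM, above the other Wt libraries (363 to 508 CPM) but below diabetic Hif1a+/- 66 (681 CPM) and 77 (818 CPM), in which the GBPs stood at a median of 0.67 and 1.08 times the other libraries.

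The members varied together over the 12 libraries. After the group means were subtracted, the median Spearman correlation over the 12 libraries was 0.5 among the 780 pairs of members and 0.0 among all pairs of tested genes. Among the 9 GBPs and IRGs other than Gbp6 the median was 0.88, all 36 pairs were positive, and the median without animal 80 was 0.85. For the 3 antigen-processing genes the median was 0.85, and 0.81 without animal 80. The group means subtracted still included animal 80, which lowers the other animals of its group together in the genes high in 80. The values without animal 80 therefore cannot show whether these genes vary together apart from it. The points share libraries and depth, so these values describe the set.

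The comparison of diabetic with non-diabetic pregnancy in Wt asks what maternal diabetes alone left in the adult ventricle. No member and no gene of the 14706 passed the adjusted threshold of 0.1 in edgeR's quasi-likelihood test, and DESeq2 called 4 genes (0.0272%), no member among them. When genes with low counts were kept in the edgeR fit, 9 members were called, 8 of them GBPs or IRGs and the other Tap1, against 0.476% of the 27093 genes in that fit. An unadjusted p under 0.05 was reached by 4 of 40 members, all with a higher mean after diabetic pregnancy (10% against 1.17% of all genes) and none with a lower one (1.61% of all genes), where 2.78% of all genes did so in either direction. They were Gbp2 (log2 fold change 0.94, SE 0.36), Igtp (1.1, SE 0.48), Bst2 (0.42, SE 0.19) and Tap1 (0.89, SE 0.4), each with an edgeR adjusted p = 1.0. Bst2, or tetherin, which holds budding viruses at the cell surface, measured 11.5, 15.3 and 12.5 CPM in non-diabetic and 18.5, 11.8 and 22.7 CPM in diabetic Wt. The groups overlapped for all 4 of these genes, and only Ifitm2 had every diabetic above every non-diabetic value (2.14% of all genes did so in this direction and 3.4% in the other, with no member). Over the 40 members 33 had a positive fold change (82.5% against 51.6% of all genes) with a median of 0.24 on the log2 scale. Markers of some immune cells differed between the same groups. The summed T and NK cell markers stood at 1.87 to 2.36 CPM (30 to 52 counts) in non-diabetic and 2.91 to 3.24 CPM (51 to 95 counts) in diabetic Wt. Only 3 of these 9 markers passed the filter. All 10 macrophage markers had a positive fold change with a median of 0.27 (5 of 10 and 0.02 without animal 80). It was positive for 1 of 4 monocyte and neutrophil markers tested (median -0.99) and 1 of 2 dendritic cell markers (median 0.041). The part of these cells in the members' values was not tested.

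This pattern rested on animal 80. Without it, the fold change of Gbp2 was 0.17, of Igtp -0.05, of Tap1 -0.03 and of Bst2 0.2 on the log2 scale. No member then reached an unadjusted p under 0.05, against 2.06% of all genes higher and 2.3% lower in that fit. A positive fold change was found in 12 of 40 members, against 50.9% of all genes, and the median was -0.05. Without animal 7 instead, 17 members reached an unadjusted p under 0.05, all with a higher mean, against 2.83% of all genes in this direction. With limma-voom and sample quality weights on all 12 libraries, no member reached it (1.01% of all genes did higher and 1.85% lower). In that fit 28 of 40 members had a positive fold change (49.5% of all genes), with a median of 0.12. The plot of fold changes shows the GBP, IRG and antigen-processing genes closer to 0 once animal 80 is left out, apart from Gbp6, which goes from 0.32 to 0.6. Whether animal 80 differs because of maternal diabetes or for a reason of its own was not tested.

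In Hif1a+/- offspring the members with the smallest p after maternal diabetes were the 3 IFITM genes, Ifi27 and Irf8, all with higher means. No member passed the adjusted threshold in edgeR, DESeq2 called 1 member, Ifitm1 (2.5% against 1.44% of all genes), and limma-voom with sample quality weights called these 5 (12.5% against 6.37% of all genes). The IFITM proteins sit in membranes and hinder the fusion of enveloped viruses. Ifitm1 measured 1.99, 1.58 and 2.26 CPM in non-diabetic Hif1a+/- (14, 32, 44) and 3.21, 4.62 and 5.92 CPM in diabetic Hif1a+/- (66, 72, 77), against 2.62, 2.96 and 2.37 CPM in non-diabetic Wt and 2.63, 3.27 and 3.43 CPM in diabetic Wt. Every diabetic Hif1a+/- value lay above every non-diabetic value of either genotype, and the non-diabetic Hif1a+/- values lay below all Wt values. The log2 fold change was 1.22 (SE 0.24, edgeR adjusted p = 0.18), and the DESeq2 adjusted p was 0.0031. Ifitm1 is among the genes the study itself selected on these samples, so its change there is not independent evidence.

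Ifitm3 measured 77.2, 78.8 and 82.4 CPM in non-diabetic and 89.1, 115 and 135 CPM in diabetic Hif1a+/- (log2 fold change 0.51, SE 0.17, edgeR adjusted p = 0.31). In non-diabetic Wt it measured 95.3, 80.8 and 87.6 CPM and in diabetic Wt 96.8, 83.3 and 137 CPM, so that the highest of all 12 values was again that of animal 80. Ifitm2 measured 52.9, 62.2 and 62.8 CPM against 63.1, 79.6 and 84.0 CPM (0.35, SE 0.11, edgeR adjusted p = 0.3). In all 3 IFITM genes animal 66 was the lowest and animal 77 the highest of the diabetic Hif1a+/- group, and for Ifitm2 animal 66 lay only just above the highest non-diabetic animal. Ifi27, an interferon-induced protein of mitochondria and the nuclear envelope, measured 22.7, 24.2 and 24.1 CPM against 31.1, 29.7 and 30.1 CPM (0.36, SE 0.13, edgeR adjusted p = 0.33). Irf8, a factor needed for monocytes, macrophages and dendritic cells, measured 6.78, 5.52 and 6.89 CPM against 7.65, 9.51 and 9.32 CPM (0.46, SE 0.17, edgeR adjusted p = 0.36). These 5 genes were the members with an unadjusted p under 0.05, all with a higher mean. That is 12.5% of the list, against 5.72% of all genes in this direction and 6.28% in the other (12% in all). Without animal 77 only Ifitm1 and Ifi27 of these reached it (5% of the list against 3.87% of all genes in this direction), Oas2 and Parp14 did so with a lower mean (4.55% of all genes), and the log2 fold changes of Ifitm1, Ifitm2, Ifitm3 and Irf8 were 0.99, 0.27, 0.36 and 0.42. With Bst2, 6 members were higher in every diabetic than in every non-diabetic Hif1a+/- library (15% against 11.2% of all genes), and none was lower in all (13.2% of all genes were). The spans of Irf8 and Ifitm2, introns included, share 20337 and 1101 bases with another gene on the same strand. Reads that fall on exons of both genes may be dropped.

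**Figure D3:**
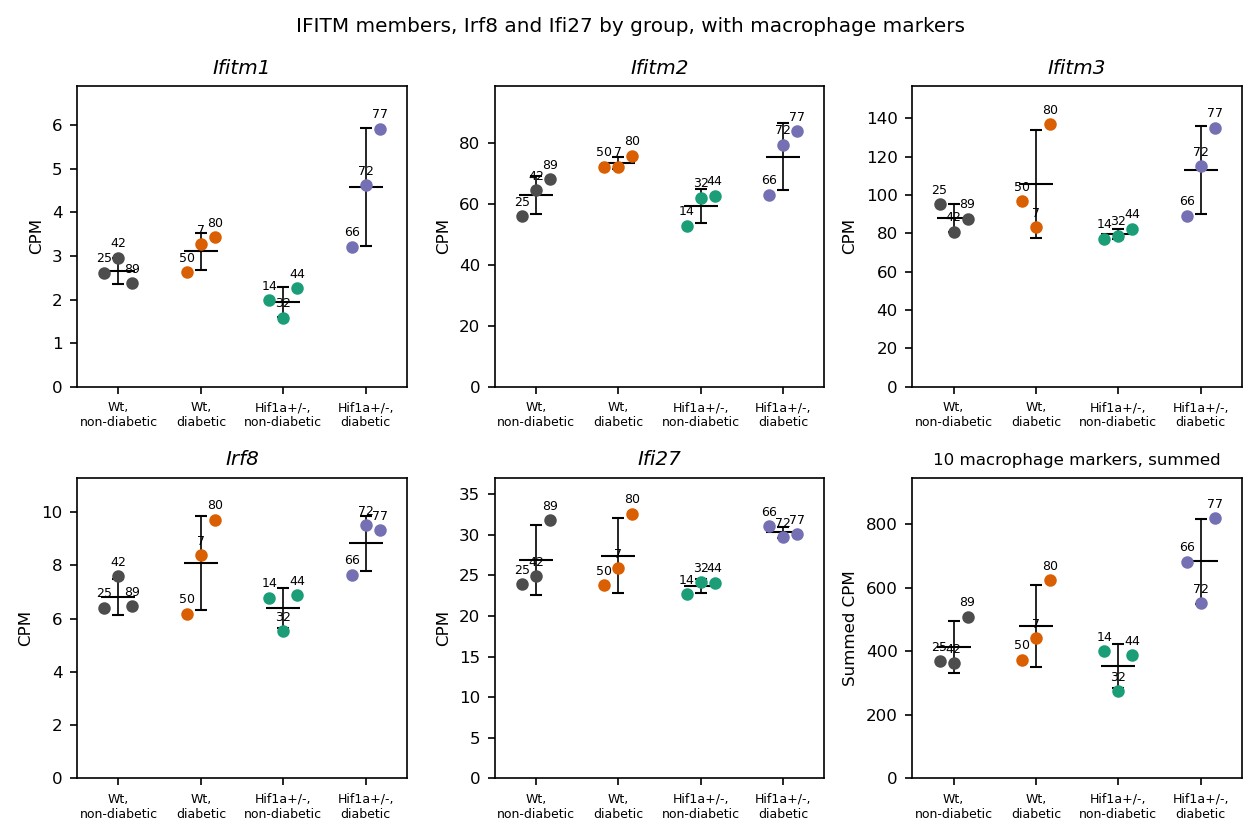
TMM-scaled CPM of Ifitm1, Ifitm2, Ifitm3, Irf8 and Ifi27, and the summed CPM of 10 macrophage markers, in each library (dots, with the animal number) by group; bars are the mean and SD of 3 libraries. In each panel the 3 diabetic Hif1a+/- animals lie above the 3 non-diabetic Hif1a+/- animals.

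Markers of other cell types differed between the same groups. The 10 macrophage markers summed to 275 to 400 CPM in non-diabetic and 551 to 818 CPM in diabetic Hif1a+/- libraries. All 10 had a positive fold change, with a median of 0.91 on the log2 scale, 9 had an unadjusted p under 0.05 and DESeq2 called 5 of them, while edgeR called none. Macrophages counted by staining in the study were significantly increased only in the LV of diabetic Wt offspring. Marker RNA and counts of stained cells are different measures. Of the 6 adventitial and epicardial markers, 5 had a positive fold change and 1, the epicardial gene Wt1, a negative one (-0.39), and DESeq2 called Pi16, Mfap5 and Cd248. Pi16 measured 146, 91.4 and 267 CPM in diabetic Hif1a+/- and 56.1, 60.6 and 56.1 CPM in non-diabetic Hif1a+/-. The part of these cells in the IFITM, Irf8 and Ifi27 values was not tested. C1qa, C1qb, C1qc, Mrc1 and Lyz2 of the macrophage markers were selected by the study itself on these samples. So were Pi16, Mfap5, Cd248 and the fibroblast gene Col3a1, and the change of these markers is not independent evidence.

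The GBPs did not share the direction of the IFITM genes. Of 6 GBPs 5 had a negative fold change in Hif1a+/-, from -0.67 for Gbp4 (SE 0.41, edgeR adjusted p = 0.51) upward, with a median of -0.39 on the log2 scale. Oas2, which makes the activator of RNase L, measured 12.9, 8.62 and 10.4 CPM in non-diabetic and 7.19, 4.66 and 10.4 CPM in diabetic Hif1a+/- (-0.52, SE 0.25, edgeR adjusted p = 0.43), whereas its relative Oas1a had a fold change of 0.45 (SE 0.25, adjusted p = 0.48). Over the list 23 of 40 members had a positive fold change (57.5% against 49% of all genes), with a median of 0.07. Without animal 77 it was 17 of 40 (49.2% of all genes) with a median of -0.07. Without non-diabetic Hif1a+/- 44 it was 20 of 40 (50.8% of all genes) with a median of -0.002.

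**Figure D4:**
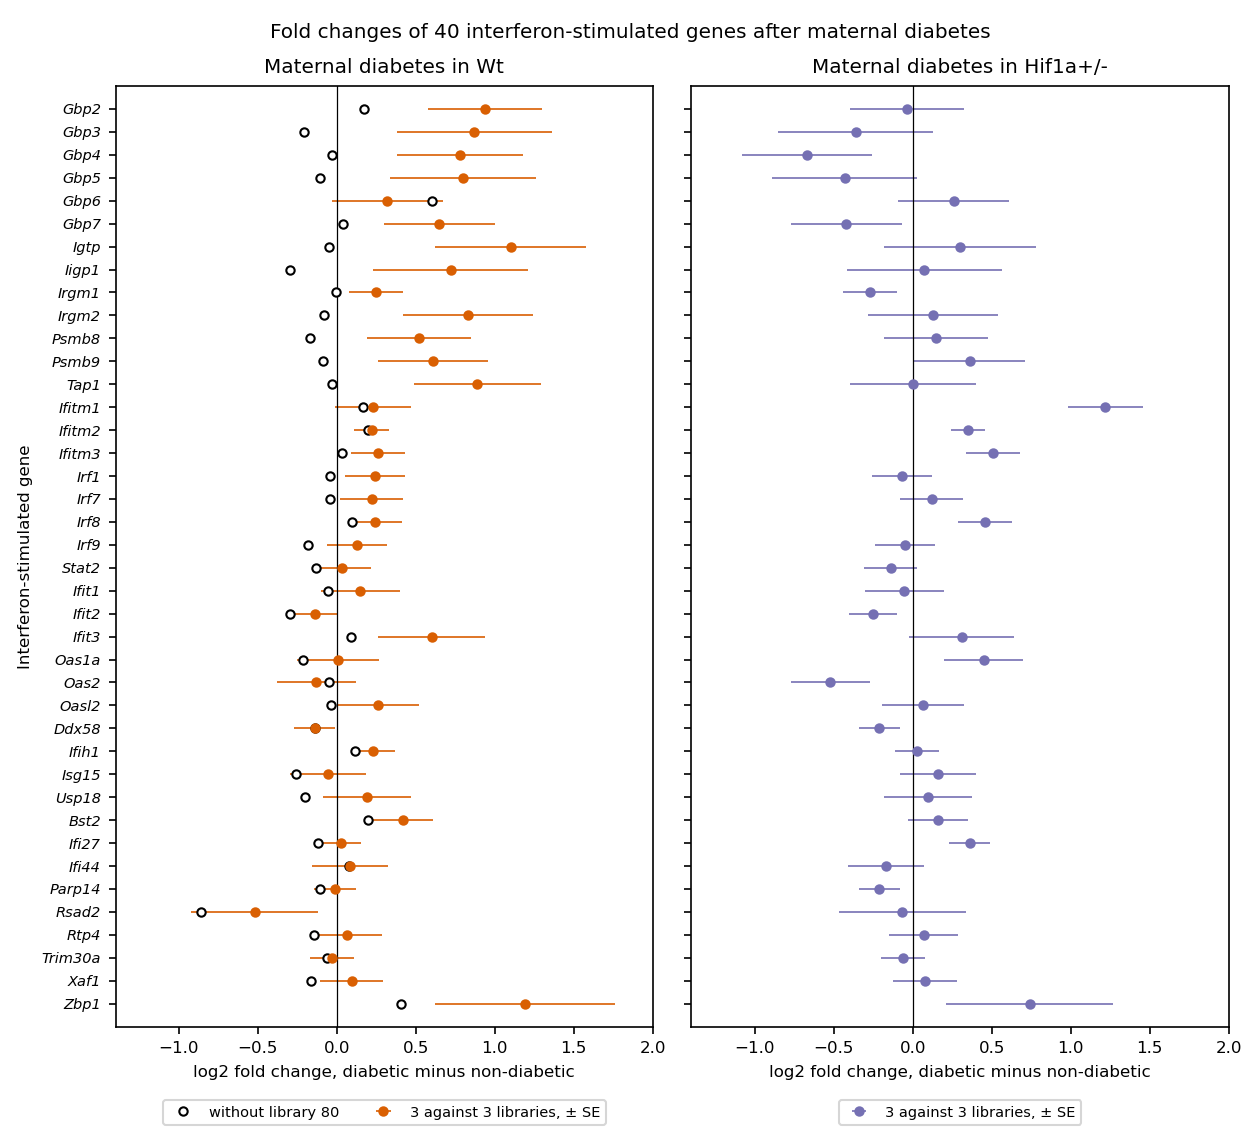
Log2 fold change of each of the 40 members after diabetic against non-diabetic pregnancy, in Wt (left) and in Hif1a+/- (right); filled dots are edgeR estimates with 1 SE, and open dots in the left panel are the estimates without animal 80. Left, the GBP, IRG and antigen-processing dots other than Gbp6 lie closer to 0 without animal 80, and Gbp6 goes from 0.32 to 0.6; right, the IFITM genes stand out to the right, with Ifitm1 at 1.22.

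The comparison of genotypes after non-diabetic pregnancy gave the smallest differences. No member was called by edgeR or DESeq2 or reached an unadjusted p under 0.05 (0.959% of all genes did, 0.306% with a higher and 0.653% with a lower mean in Hif1a+/-), DESeq2 called 0.0068% of all genes, and 25 of 40 had a positive fold change (62.5% against 50.8% of all genes) with a median of 0.05 on the log2 scale. The 4 members with the smallest p were Ifitm1 (log2 fold change -0.44, SE 0.25), Ifi27 (-0.19, SE 0.13), Ifit2 (0.21, SE 0.15) and Oasl2 (0.32, SE 0.26), each with an edgeR adjusted p = 1.0. Ifitm1 was the only member whose groups did not overlap, lower in the 3 Hif1a+/- animals (2.26% of all genes did so in this direction and 2.55% in the other). Ifit2, an RNA-binding member of the IFIT family, measured 12.5, 14.1 and 14.4 CPM in Wt and 17.6, 17 and 12.7 CPM in Hif1a+/-. Oasl2, an OAS-like protein, measured 5.48, 6.05 and 6.58 CPM in Wt and 9.78, 6.76 and 6.03 CPM in Hif1a+/-, and Ifi27 23.9, 24.9 and 31.8 CPM in Wt against 22.7, 24.2 and 24.1 CPM in Hif1a+/-. All 3 of these pairs of groups overlapped.

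After diabetic pregnancy, 4 members reached an unadjusted p under 0.05 between the genotypes (10% against 5.35% of all genes), and none passed the adjusted threshold. Gbp4 (log2 fold change -1.14, SE 0.41), Irgm1 (-0.47, SE 0.17) and Gbp7 (-0.87, SE 0.35) had a lower mean in Hif1a+/- (7.5% of the members against 2.39% of all genes), and Ifitm1 (0.55, SE 0.23) a higher one (2.5% against 2.96%), each with an edgeR adjusted p = 0.86. DESeq2 called no member and 0.163% of all genes, and edgeR without the filter on low counts called 9 members, all GBPs or IRGs, against 0.812% of the genes in that fit. The groups overlapped for all 40 members, while 4.32% of all genes were higher and 3.62% lower in every Hif1a+/- library. Without animal 80 the fold changes of Gbp4, Irgm1 and Gbp7 were -0.33, -0.21 and -0.26 on the log2 scale, and the median over the members went from -0.09 to 0.17. A positive fold change was found in 12 members with animal 80 (30% against 47.9% of all genes) and in 30 without it (50.1% of all genes). Without it, 5 members reached an unadjusted p under 0.05, namely Ifi27, Ifitm1, Ifitm3, Irf7 and Psmb8, all higher in Hif1a+/-. In that fit 6.19% of all genes did so higher and 8.12% lower. With limma-voom and sample quality weights, 18 of 40 members had a positive fold change (49.3% of all genes). Only Ifitm1, higher, and Irgm1, lower, reached an unadjusted p under 0.05 there (4.31% and 4.12% of all genes).

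Diabetic Hif1a+/- against non-diabetic Wt, both exposures against neither, shares its samples with the other comparisons. The 4 members with the smallest p were Ifitm1 (log2 fold change 0.78, SE 0.23, edgeR adjusted p = 0.46), Ifitm2 (0.26, SE 0.11, adjusted p = 0.55), Ifitm3 (0.36, SE 0.17, adjusted p = 0.56) and Irf8 (0.37, SE 0.17, adjusted p = 0.56). No member was called by edgeR or DESeq2 (which called 0.463% of all genes), and 2 of 40 (5%) reached an unadjusted p under 0.05, both with a higher mean, against 4.09% of all genes in this direction, 4.77% in the other and 8.85% in all. A positive fold change was found in 26 members (65% against 49.2% of all genes). Every diabetic Hif1a+/- value exceeded every non-diabetic Wt value for 5 members, Ifitm1, Irf7, Irf8, Bst2 and Igtp (12.5% against 7.47% of all genes), and for no member was it lower (7.11% of all genes). Irf7, the factor that amplifies type I interferon, measured 5.73, 5.91 and 5.68 CPM in non-diabetic Wt and 6.73, 6.91 and 8.26 CPM in diabetic Hif1a+/-.

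The interaction asks whether the difference after diabetic pregnancy itself differed between the genotypes, and no member passed the adjusted threshold in edgeR or DESeq2. Without the filter on low counts edgeR called 5 members, Gbp2, Gbp3, Gbp4, Gbp5 and Gbp7, against 0.288% of the genes in that fit. The smallest p belonged to Ifitm1 (0.99, SE 0.34, edgeR adjusted p = 1.0), whose fold change was 1.22 in Hif1a+/- and 0.23 in Wt on the log2 scale. Gbp4 (-1.44, SE 0.57), Gbp7 (-1.08, SE 0.49) and Irgm1 (-0.52, SE 0.24) followed in the opposite direction, all with an adjusted p = 1.0. In total 3 members reached an unadjusted p under 0.05 (7.5% against 2.52% of all genes), 1 of them positive (1.49% of all genes) and 2 negative (1.03%), and 9 of 40 had a positive interaction, against 47.7% of all genes. Without animal 80 the values of Gbp4, Gbp7 and Irgm1 were -0.64, -0.46 and -0.26, that of Ifitm1 was 0.98, and 24 of 40 members had a positive interaction (49.8% of all genes). With limma-voom and sample quality weights, 21 of 40 did (48.9% of all genes), with a median of 0.01. Only Ifitm1 and Ifi27, both positive, reached an unadjusted p under 0.05 there (2.86% of all genes did so positive and 2.41% negative).

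A single member stood out in another library. Rsad2, or viperin, which makes a chain-terminating nucleotide against viral polymerases, measured 25.1 CPM in non-diabetic Wt 25 and 6.03 to 13.9 CPM in the other 11 libraries. Cmpk2, its genomic neighbour and usual partner in interferon responses, which is not on the list, measured 6.35 CPM in animal 25, within the 4.97 to 9.35 CPM of the other libraries. Red cell genes were also highest there, with Hba-a1 at 2236 CPM against 56.8 to 516 CPM elsewhere, as was S100a8, a neutrophil gene, at 6.35 CPM against 0.101 to 2.56 CPM. The part of these cells in the Rsad2 value was not tested.

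Of 117 further genes of the pathway, 95 could be tested and none passed the adjusted threshold in edgeR or DESeq2 in any of the 6 comparisons. An unadjusted p under 0.05 was reached by 8 with a higher and 1 with a lower mean after maternal diabetes in Wt, and by 8 and 4 in Hif1a+/-. In Wt this was 8.42% higher and 1.05% lower, against 1.17% and 1.61% of all genes, and in Hif1a+/- 12.6% in all, close to the 12% of all genes. In Wt, 6 of the higher ones were class I genes, and all 16 class I genes had a positive fold change with a median of 0.39 on the log2 scale. Without animal 80, 11 of 16 did (50.9% of all genes), with a median of 0.06, and 2 reached an unadjusted p under 0.05 (2.06% of all genes higher and 2.3% lower). H2-Q7 (log2 fold change 1.2, SE 0.42) and B2m, the light chain of class I molecules (0.5, SE 0.18), had the smallest p, with edgeR adjusted p = 1.0 for both. In Hif1a+/-, Ifngr1, a chain of the interferon-gamma receptor (0.33, SE 0.1), Calr, a chaperone of class I loading (0.44, SE 0.15), and Ifi27l2a, a relative of Ifi27 (0.9, SE 0.3), had higher means, whereas Ifi203 (-0.5, SE 0.15) had a lower one, each with an edgeR adjusted p = 0.3.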

How the data were processed

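The 12 LV libraries were sequenced as 3′-seq, single reads from the 3′ end of transcripts. The authors trimmed the reads, filtered out those of ribosomal or mitochondrial origin, and used STAR (2.5.2b in the submitters' processing notes), the GRCm38 build and GENCODE M8. Their gene counting used htseq-count in union mode, which drops reads that fit more than 1 gene. The deposited counts are whole reads per gene, not normalized; 5 tally lines per library were left out, and reads aligned to several places, 12.37 to 17.02% of all, were not counted. The deposited normalized values were not used.

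Groups came from the sample labels, and the animal numbers in the titles pair no samples. Symbols were taken from GENCODE M21 (GRCm38), matched for 46488 of 46983 genes. The main test was edgeR 4.0.16 (R 4.3.3) quasi-likelihood with TMM and filterByExpr, 1 mean per group and 12 libraries in 1 fit (8 residual degrees of freedom, biological coefficient of variation 13.7%), with Benjamini-Hochberg adjustment over 14706 genes and the study's threshold of 0.1. Alternatives were DESeq2 1.42.0, limma-voom 3.58.1 with sample quality weights, DESeq2 size factors in edgeR, no low-count filter, and leaving out each library. CPM are TMM-scaled, and log2 deviations used a pseudocount of 1. The scripts were tested on simulated counts. Averaged over genes, replicate libraries differed by more than counting noise in all 12 within-group pairs. P-values rest on the spread between animals within groups. This spread was estimated over all groups together, with information shared across genes, and not from the compared groups alone.

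In each comparison the 4 members with the smallest unadjusted p are given in full, and other members and pathway genes by counts and ranges. The members, role groups and lists were chosen with earlier results of these data known, so the counts on them are descriptions. The precision is set mainly by 3 animals per group, and floors for a count of 0 (3 counts) cover counting error only. For members with few reads, such as Zbp1 (6 to 37 counts per library) and Ifitm1 (28 to 134), counting error adds to the spread. A further gene of the pathway is not reported here.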

Additional observations from a re-analysis of the deposited data

How the results depend on the processing

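With 3 libraries per group, 1 animal can carry a mean, and this was the case for animal 80. Leaving it out turned the log2 fold change of Igtp after maternal diabetes in Wt to -0.0505 and that of Tap1 to -0.0309, against 1.498 and 1.211 without animal 7. The number of members at an unadjusted p under 0.05 in that comparison ran from 0 (without animal 80) to 17 (without animal 7). Of all genes, 2.06% reached it higher and 2.3% lower without animal 80, and 2.83% and 2.8% without animal 7. With 1 library left out the number of members ran from 4 to 7 for maternal diabetes in Hif1a+/-, 1 to 12 for genotype after diabetic pregnancy, 2 to 7 for both exposures against neither and 1 to 10 for the interaction. The share of all genes moved over the same fits. In the same order it ran from 3.87 to 7.11%, 1.65 to 6.19%, 2.34 to 6.84% and 1.06 to 3.62% with a positive value. With a negative value it ran from 3.68 to 7.8%, 1.72 to 8.12%, 1.98 to 9.12% and 0.517 to 4.11%. No paired analysis was possible because the animal numbers are not shared between groups.

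The number of calls depended on the tool and the filter, and the cause was not tested. DESeq2 called 4 genes for maternal diabetes in Wt, 201 genes and 1 member for maternal diabetes in Hif1a+/-, 1 gene for genotype after non-diabetic pregnancy, 24 for genotype after diabetic pregnancy and 68 for both exposures against neither, where edgeR called 0 genes. Limma-voom called 937 genes and 5 members for maternal diabetes in Hif1a+/-, 1 gene for genotype after diabetic pregnancy and 2 for both exposures against neither. Without the filter on low counts, edgeR called 129 genes and 9 members for maternal diabetes in Wt, 592 and 4 for maternal diabetes in Hif1a+/-, 33 genes for genotype after non-diabetic pregnancy, 220 genes and 9 members for genotype after diabetic pregnancy, 445 and 2 for both exposures against neither, and 78 and 5 for the interaction. With 1 library left out, between 0 and 38 genes were called for maternal diabetes in Hif1a+/- (38 without animal 72), 0 to 2 for genotype after diabetic pregnancy, 0 to 1 for both exposures against neither and for the interaction, and 0 otherwise; no member was called in any of these fits. DESeq2 size factors in the edgeR fit gave 0 calls of members in all 6 comparisons.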
